A study of Mus musculus with 10 samples.

Results

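Immediate early genes and feedback inhibitors of ERK were followed in C2C12 cells after knockdown of *Fndc1*. The group holds 10 genes of the 55359 in the deposited table, taken by symbol: the transcription factor genes *Fos*, *Jun*, *Junb* and *Egr1*, the MAP kinase phosphatase genes *Dusp1*, *Dusp4* and *Dusp6*, and the Sprouty genes *Spry1*, *Spry2* and *Spry4*. C2C12 is a mouse myoblast line that fuses into myotubes in low serum, and *Fndc1* encodes a protein with fibronectin type III domains. Cells of this 1 line received 100 nM of siRNA, either a scrambled one (si-Control, labelled control) or one directed against *Fndc1* (si-*Fndc1*, labelled Fndc1 knock down). RNA was sequenced from 5 libraries of each group, which the sample labels place at 4 days of differentiation in 2% horse serum, while the series text gives 48 h after transfection. No separate cultures are named in the labels, so that the p-values measure only the spread between these libraries, which may be technical.

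Immediate early genes are transcribed within minutes of a stimulus, from factors that are already in the cell, and their products FOS, JUN, JUNB and EGR1 bind DNA and switch on later genes. A main route to them is the RAS, RAF, MEK and ERK kinase cascade, in which ERK phosphorylates ternary complex factors that sit with serum response factor on their promoters. The same cascade raises its own brakes: DUSP phosphatases remove phosphate from MAP kinases, DUSP6 in the cytoplasm with a preference for ERK, DUSP1 and DUSP4 in the nucleus, and Sprouty proteins act near the receptor and RAF. In muscle, serum and growth factors hold ERK activity and keep myoblasts cycling, and cells differentiate when these are withdrawn. Levels here are of mRNA, and neither ERK phosphorylation nor protein was measured in these files.

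Libraries of si-Control held between 66771605 and 75995168 counted reads. Those of si-*Fndc1* held between 56332844 and 72839369, the fewest being in si-*Fndc1* 5. *Fndc1* itself had 27.8 FPKM ± 2.04 (SD, n = 5) in si-Control and 20.9 ± 1.70 (n = 5) in si-*Fndc1*, where FPKM is the number of fragments scaled to transcript length and library size, and the groups did not overlap (log2 fold change -0.40 ± 0.07 SE, or -0.22 ± 0.05 SE with the offset for GC content and length described below). All 10 hepatocyte markers rose, with a summed level of 0.001 to 5.43 FPKM in si-Control and 43.8 to 161 FPKM in si-*Fndc1*, and their part in the results below was not tested. Of the 10 muscle markers, *Myod1*, *Ckm*, *Tnnt1* and *Mymk* rose and *Ttn* fell, and their summed level overlapped between the groups (3590 to 4028 FPKM against 3434 to 4172 FPKM). With the offset the sign of *Ttn* turned (from -0.45 to 0.07 on the log2 scale) and *Mymk* was not called (0.20), while *Myog* (-0.18) and *Des* (0.10) were. In bulk RNA, fewer cells of a type and less RNA per cell cannot be told apart. Of the remaining marker lists, *Dcn* rose and *Col1a1* fell among 3 tested fibroblast genes, *Cdk1* rose among 6 genes of cycling cells, the 1 tested macrophage and leukocyte gene did not pass the test, and no endothelial or adipocyte gene exceeded 0.265 FPKM in any library.

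In si-*Fndc1*, *Jun*, *Dusp4* and *Spry1* fell, each by less than 0.4 on the log2 scale, and no member rose. *Fos*, *Junb*, *Egr1*, *Dusp1*, *Dusp6* and *Spry2* did not pass the test, and *Spry4*, with a mean of 0.461 FPKM, lay below the minimum of 0.5 FPKM and was not tested. These 3 of 9 tested members (33.3%) stand against 34.4% of all 13548 tested genes called in either direction (edgeR's quasi-likelihood test, Benjamini-Hochberg adjusted p under 0.05), of which 17.3% rose and 17.2% fell. The share of members called was therefore at the background of this comparison. *Jun* and *Dusp4* did not overlap between the groups, 22.2% of the tested members, against 25.1% of all tested genes. The median log2 fold change was -0.22 over the 9 tested members and 0.004 over all tested genes.

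Fold changes depended on GC content: over the 11185 genes with a GC content and a length, Spearman's rho of log2 fold change with GC content was -0.52 across genes, which are not independent replicates. With an offset that removes the trend of each library with GC content and length, rho was -0.006, and 22.7% of these genes were called, 11.3% higher and 11.4% lower in si-*Fndc1*. The called members then were *Jun*, *Dusp4* and *Spry2*, all lower, and the median of the 9 members was -0.14. *Spry1* lost its call and *Spry2* gained one under this offset, so that the call of either depends on it.

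**Figure D1:**
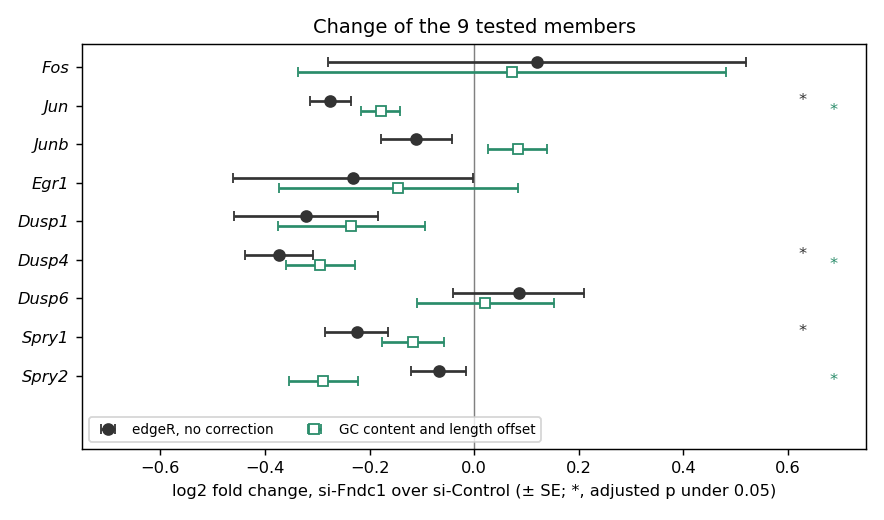
Log2 fold change (horizontal axis, si-*Fndc1* over si-Control) of the 9 tested members, with bars of 1 SE, from edgeR without correction (filled circles) and with the offset for GC content and length (open squares), stars marking an adjusted p under 0.05. *Jun* and *Dusp4* carry both stars, *Spry1* only that without correction and *Spry2* only that with the offset.

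Levels per transcript length ran in the order *Junb*, *Jun*, *Egr1*, *Spry2*, *Spry1*, *Dusp4*, *Dusp1*, *Dusp6*, *Fos* and *Spry4* in si-Control, from a mean of 107 FPKM down to 0.471 FPKM. Ranges of the 5 si-Control libraries overlapped between neighbours in this order for *Egr1* and *Spry2*, for *Spry1* and *Dusp4*, and for *Dusp4* and *Dusp1*. The other neighbours were apart in all 5. *Junb* was thus the most abundant member and *Fos*, its AP-1 partner gene, was near the lower end.

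**Figure D2:**
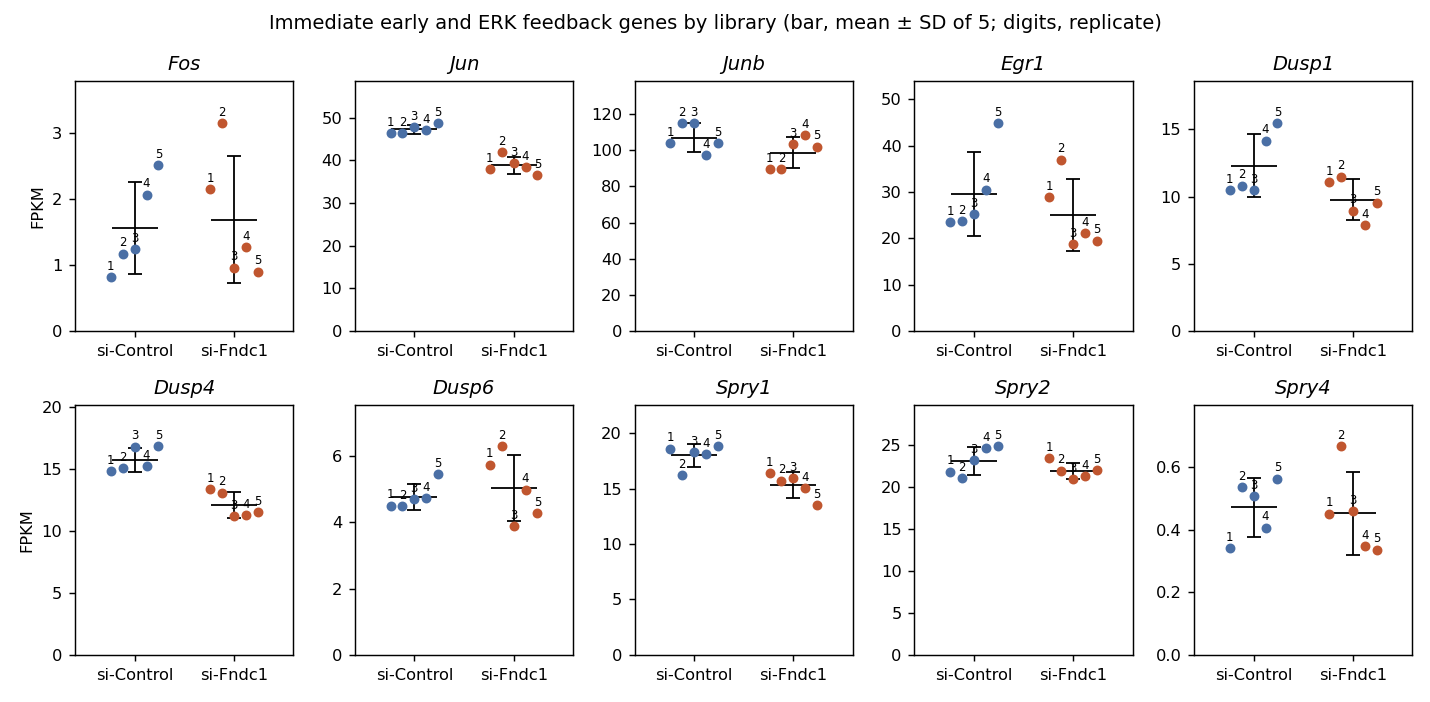
FPKM (vertical axis, from 0) of the 10 members in each library, with 5 points and a bar of mean ± SD per group and the replicate number above each point. Points of *Jun* and *Dusp4* are apart between the groups, while in *Fos* and *Egr1* replicates 1 and 2 of si-*Fndc1* and 4 and 5 of si-Control stand above the rest of their group.

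JUN is the AP-1 subunit that pairs with FOS or with itself. *Jun* (ENSMUSG00000052684, chromosome 4, 94937271 to 94940459, minus strand) had 46.4, 46.3, 47.8, 47.2 and 48.8 FPKM in si-Control 1 to 5, and 37.9, 42.0, 39.3, 38.5 and 36.6 FPKM in si-*Fndc1* 1 to 5. Every si-*Fndc1* library was below every si-Control library, and the si-Control libraries lay within 1.05-fold of each other. The means were 47.3 ± 1.04 (SD, n = 5) and 38.9 ± 2.01 (n = 5) FPKM, the log2 fold change was -0.28 ± 0.04 SE (edgeR adjusted p = 0.000426), and the two-sided exact permutation test gave p = 0.00794, the smallest that 5 against 5 libraries allow. With the offset for GC content and length the fold change was -0.18 on the log2 scale (edgeR adjusted p = 0.00685). An antisense lncRNA gene, *Junos*, overlaps *Jun* over 689 bases and had 479 reads over the 10 libraries against 107293 of *Jun*. No source used here gives the strand setting of the counting. Positions are printed as the deposited table lists them, and GRCm39 is the build in the submitters' processing notes.

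JUNB, which can take the place of JUN in AP-1 with weaker activity, was not distinguishable between the groups. *Junb* (ENSMUSG00000052837, chromosome 8, 85701113 to 85705347, minus strand) had 104, 115, 115, 97.4 and 104 FPKM in si-Control and 89.5, 89.6, 103, 108 and 102 FPKM in si-*Fndc1*. The ranges overlapped, with si-*Fndc1* 1 and 2 below every si-Control library. Its log2 fold change of -0.11 ± 0.07 SE (edgeR adjusted p = 0.233; exact permutation p = 0.119) turned to 0.08 (adjusted p = 0.332) with the offset, so that no direction can be given. *Junb* shares 351 bases with *Prdx2* on the other strand, which had 188642 reads over the 10 libraries against 184224 of *Junb*.

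FOS, the partner of JUN, and EGR1, a zinc finger factor, are the members known for the fastest and most transient induction. *Fos* (ENSMUSG00000021250, chromosome 12, 85520664 to 85524047, plus strand) had 0.815, 1.18, 1.24, 2.07 and 2.51 FPKM in si-Control and 2.15, 3.15, 0.962, 1.27 and 0.903 FPKM in si-*Fndc1*, from 133 to 605 reads per library. Highest and lowest library differed 3.08-fold within si-Control and 3.49-fold within si-*Fndc1*, and the groups overlapped almost fully. The log2 fold change of 0.12 ± 0.40 SE (edgeR adjusted p = 0.844; exact permutation p = 0.841) took values from -0.23 to 0.36 when 1 library was left out, with -0.04 without si-Control 1 and -0.23 without si-*Fndc1* 2. *Egr1* (ENSMUSG00000038418) had 23.6, 23.8, 25.2, 30.5 and 45.0 FPKM in si-Control and 28.9, 37.0, 18.8, 21.1 and 19.5 FPKM in si-*Fndc1*. Here 3 si-*Fndc1* libraries lay below every si-Control library and the other 2 within the si-Control range. The log2 fold change of -0.23 ± 0.23 SE did not pass the test (edgeR adjusted p = 0.471; exact permutation p = 0.437), and it was -0.03 without si-Control 5.

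DUSP1 dephosphorylates p38 and JNK as well as ERK. *Dusp1* (ENSMUSG00000024190, chromosome 17, 26724564 to 26781102, minus strand) had 10.5, 10.8, 10.5, 14.2 and 15.5 FPKM in si-Control and 11.1, 11.5, 8.97, 7.88 and 9.56 FPKM in si-*Fndc1*. The ranges overlapped, with 3 si-*Fndc1* libraries below every si-Control library and 2 si-Control libraries above every si-*Fndc1* library. The log2 fold change of -0.32 ± 0.14 SE missed the threshold (edgeR adjusted p = 0.0947, unadjusted p = 0.0395; exact permutation p = 0.0952) and passed it in DESeq2 (adjusted p = 0.0447). With the offset it was -0.23 (edgeR adjusted p = 0.266). The span listed for *Dusp1* shares 640 bases with that of *Ergic1* on the other strand. *Ergic1* had 77511 reads over the 10 libraries against 28516 of *Dusp1*, and its log2 fold change was -0.01. *Gm8225*, *Gm50275* and *Gm50274* also overlap *Dusp1*, with 57, 34 and 4 reads over the 10 libraries.

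*Dusp4*, whose product is a nuclear phosphatase of ERK and JNK, had the largest fall of the called members. *Dusp4* (ENSMUSG00000031530, chromosome 8, 35274451 to 35287048, plus strand) had 14.8, 15.1, 16.8, 15.2 and 16.8 FPKM in si-Control and 13.4, 13.1, 11.2, 11.3 and 11.5 FPKM in si-*Fndc1*. All si-*Fndc1* libraries were below all si-Control libraries, and si-*Fndc1* 1 and 2 came nearest to them. The means were 15.7 ± 0.976 (SD, n = 5) and 12.1 ± 1.06 (n = 5) FPKM, and *Dusp4* fell by 0.37 ± 0.07 SE on the log2 scale (edgeR adjusted p = 0.00137; exact permutation p = 0.00794), and by 0.29 with the offset (adjusted p = 0.00951).

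DUSP6, the ERK-specific phosphatase whose mRNA is often read as a measure of ERK output, did not pass the test. *Dusp6* (ENSMUSG00000019960, chromosome 10, 99099093 to 99103351, plus strand) had 4.50, 4.49, 4.70, 4.72 and 5.45 FPKM in si-Control and 5.74, 6.29, 3.88, 4.99 and 4.28 FPKM in si-*Fndc1*. The si-*Fndc1* libraries lay on both sides, 2 above and 2 below the whole si-Control range. The log2 fold change was 0.09 ± 0.12 SE (edgeR adjusted p = 0.639; exact permutation p = 0.603), and between -0.01 and 0.17 when 1 library was left out, the lowest without si-*Fndc1* 2.

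Sprouty proteins are inhibitors of receptor tyrosine kinase signaling. *Spry1* (ENSMUSG00000037211, chromosome 3, 37694096 to 37698747, plus strand) had 18.6, 16.2, 18.3, 18.1 and 18.8 FPKM in si-Control and 16.4, 15.7, 15.9, 15.0 and 13.5 FPKM in si-*Fndc1*. The ranges met at 1 library of each group, since si-Control 2 was below si-*Fndc1* 1. *Spry1* fell by 0.22 ± 0.06 SE on the log2 scale (edgeR adjusted p = 0.0152; exact permutation p = 0.0159), and its log2 fold change with the offset was -0.12 (adjusted p = 0.187). A gene model on the other strand, *Gm42922*, overlaps it over 710 bases with 1235 reads against 37865 of *Spry1*.

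*Spry2* (ENSMUSG00000022114, chromosome 14, 106129381 to 106134253, minus strand) had 21.9, 21.1, 23.2, 24.6 and 24.9 FPKM in si-Control and 23.5, 22.0, 20.9, 21.3 and 22.0 FPKM in si-*Fndc1*. The ranges overlapped over most of their width. Its log2 fold change was -0.07 ± 0.05 SE (edgeR adjusted p = 0.347; exact permutation p = 0.222), and -0.29 ± 0.07 SE with the offset (adjusted p = 0.0104). It has the lowest GC content of the members, 46.2%, whereas *Junb*, which moved the other way under the offset, has the highest, 62.6%. The offset takes out the trend with length too, and the parts of GC content and length in these shifts were not separated. *Spry4* (ENSMUSG00000024427) was barely expressed, at 0.342, 0.535, 0.508, 0.406 and 0.563 FPKM in si-Control and 0.451, 0.665, 0.459, 0.346 and 0.336 FPKM in si-*Fndc1*, with 100 to 258 reads per library. Its ranges overlapped (exact permutation p = 0.810).

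Whether members with related roles changed by different amounts was asked with the ratio of both genes within a library, which the scaling of that library does not affect, for 8 pairs. The log2 ratio of *Dusp4* to *Dusp6* in CPM (counts scaled to library size) lay between 1.41 and 1.61 in the si-Control libraries and between 0.85 and 1.30 in the si-*Fndc1* libraries, without overlap. Its difference of -0.44 ± 0.09 SE had an exact permutation p of 0.00794, or 0.0635 after Benjamini-Hochberg adjustment over the 8 pairs, and so did not pass. Among 8 pairs, the lowest p that 5 against 5 libraries allow becomes 0.0635, unless other pairs with low p-values bring it down. *Dusp1* against *Dusp6* (-0.38 ± 0.13 SE) and *Spry1* against *Spry2* (-0.16 ± 0.06 SE) had exact permutation p-values of 0.0159 and 0.0238, each 0.0635 after adjustment. These ratios do not remove the trend with GC content and length: with the offset, the log2 fold changes were -0.12 for *Spry1* and -0.29 for *Spry2*, the opposite order, so that no direction can be given for this pair. Under it *Dusp4* (-0.29) and *Dusp1* (-0.23) remained below *Dusp6* (0.02). The remaining 5 pairs had exact permutation p-values of at least 0.119 before adjustment. *Dusp1* and *Dusp4* differed in their change by 0.06 ± 0.12 SE, *Jun* and *Junb* by -0.16 ± 0.09 SE, *Fos* and *Egr1* by 0.29 ± 0.18 SE, *Spry1* and *Spry4* by -0.17 ± 0.18 SE, and *Spry2* and *Spry4* by -0.01 ± 0.19 SE.

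**Figure D3:**
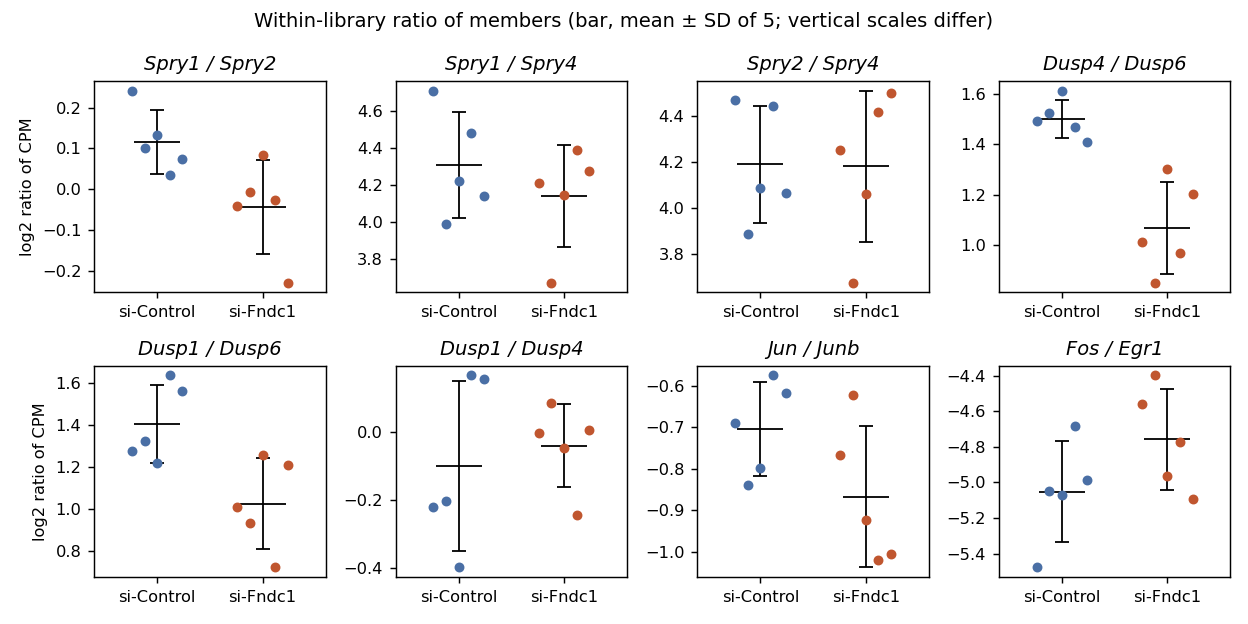
Log2 ratio of CPM of 2 members within each library (vertical axis, scale set per panel) for the 8 pairs, with 5 points and mean ± SD per group. In *Dusp4* over *Dusp6* every si-*Fndc1* point lies below every si-Control point, while the other pairs overlap.

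The members differed widely in their spread between libraries of the same group. After each group's mean was subtracted from log2 CPM, the within-group SD was 0.638 for *Fos* (97.6th percentile of all tested genes), 0.405 for *Egr1* (94.0th) and 0.242 for *Dusp1* (81.8th), against a median of 0.122 over all tested genes. *Dusp6* (0.212) was also above that median, whereas *Junb* (0.118), *Dusp4* (0.105), *Spry1* (0.101), *Spry2* (0.082) and *Jun* (0.061) were below it. *Egr1* stood above its group mean in si-Control 5 (0.65), si-*Fndc1* 2 (0.61), si-*Fndc1* 1 (0.25) and si-Control 4 (0.08), and below it in the other 6 libraries. *Fos* had the same 4 libraries above its group means.

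**Figure D4:**
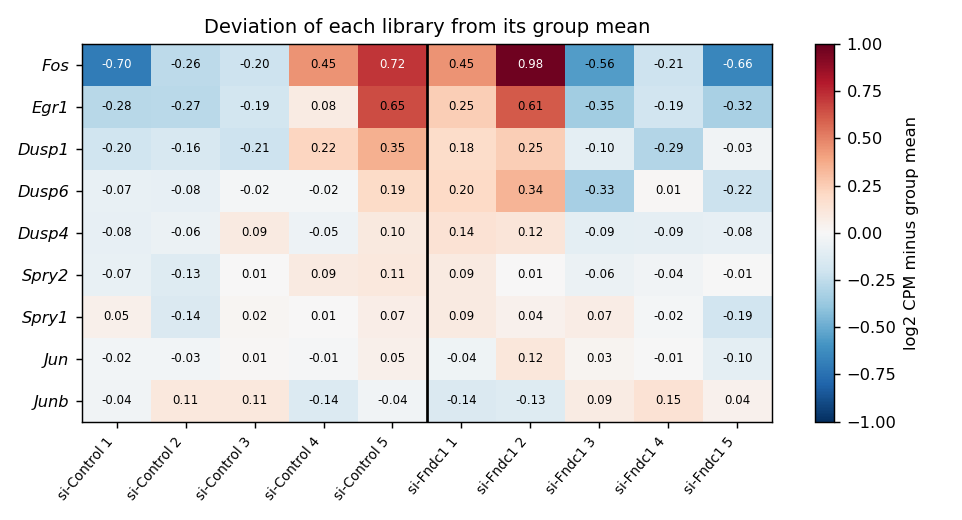
Log2 CPM minus the group mean for the 9 tested members (rows) in the 10 libraries (columns), red above and blue below the mean, with the value in each cell and a line between si-Control and si-*Fndc1*. The upper 3 rows, *Fos*, *Egr1* and *Dusp1*, are red in si-Control 4 and 5 and si-*Fndc1* 1 and 2, and *Junb*, the last row, is blue there.

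Over the 10 libraries, with group means subtracted, Pearson's r of *Fos* and *Egr1* was 0.95 (Spearman's rho 0.93; r 0.94 without the 2 farthest libraries). It was 0.90 within si-Control and 0.99 within si-*Fndc1*, on 5 libraries each. *Egr1* also varied with *Dusp6* (r 0.89, rho 0.92), *Dusp1* (r 0.87, rho 0.60), *Dusp4* (r 0.78, rho 0.85) and *Spry2* (r 0.70, rho 0.82). Its values with *Jun* (r 0.64, rho 0.42) and *Spry1* (r 0.47, rho 0.30) were lower. *Junb* went the opposite way, with r of -0.81 to *Dusp1* and -0.67 to *Fos*. This was weaker within si-Control (-0.67 and -0.46) than within si-*Fndc1* (-0.98 and -0.82). With *Dusp4*, the r of *Junb* was 0.26 within si-Control and -0.96 within si-*Fndc1*. These correlations are descriptions without a test, and the points share library, depth and scaling. Total count, the summed hepatocyte markers and the trend with GC content were 66771605 reads, 5.43 FPKM and a rho of 0.04 in si-Control 5, and 72839369 reads, 161 FPKM and a rho of 0.08 in si-*Fndc1* 2, the libraries highest in *Egr1*. In both, the hepatocyte sum was the highest of the group, and the total count was the lowest of si-Control and the highest of si-*Fndc1*. Next in *Egr1*, si-Control 4 and si-*Fndc1* 1 had hepatocyte sums of 0.001 and 93.4 FPKM. Across all 10 libraries the rho of the deviation with GC content over genes was between -0.18 and 0.16. The part of depth, hepatocyte markers and GC content in the covariation was not tested.

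The genes most like *Egr1* in this variation, among 6923 genes with a mean of at least 5 FPKM, were *Ccn1* (r 0.99), *Enc1* (r 0.99) and *Adam12* (r 0.98). *Ccn1*, an early gene for a matrix-bound signaling protein, ranged from 74.7 to 114 FPKM, and its log2 fold change between the groups was 0.03. *Dusp6* was most like *Ski* (r 0.97), *Map4k4* (r 0.96) and *Lamb1* (r 0.93). Of the 25 other immediate early genes tested, *Ccn1*, *Klf6*, *Sgk1*, *Ccn2* and *Ptgs2* (5, or 20%) had an r of at least 0.8 with *Egr1*, and of 18 other ERK feedback and output genes *Phlda1* did (5.56%), against 1.39% of all tested genes. The median r with *Egr1* was 0.48 over the 25 early genes and -0.005 over all tested genes. A positive median was not particular to early genes. It was 0.37 over the feedback and output genes, 0.35 over the muscle markers and 0.28 over the hepatocyte markers. The p38, JNK and ERK5 cascade had 0.34, growth factor receptors 0.30, the RAS to ERK cascade 0.24, and serum response factor and its cofactors 0.22. Stress genes (-0.27) and genes of cycling cells (-0.02) had negative medians. Within the 25 early genes some went the opposite way to *Egr1*, the lowest being *Zfp36* (-0.70), *Klf10* (-0.65) and *Btg2* (-0.62).

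Promoter sequences are shown for *Fos* and *Dusp1*, which varied together between libraries (r 0.84, rho 0.65), and for *Jun* and *Spry1*, which fell. *Fos* varied more closely with *Dusp6* (r 0.88, rho 0.83), and by rank also with *Spry2* (r 0.70, rho 0.79). The windows of *Dusp6* and *Spry2*, not shown, hold none of the letters searched. The sequences shown are from RefSeq (GRCm38.p6) and run 5′ to 3′ on the gene's strand from 250 bases before to 50 bases after the start site. They lie at chr12:85473640-85473939 (plus, *Fos*), chr17:26508423-26508722 (minus, *Dusp1*), chr4:95052173-95052472 (minus, *Jun*) and chr3:37639697-37639996 (plus, *Spry1*). Capitals mark letter matches to the cAMP response element TGACGTCA, its shorter core TGACG, or TGACATCA, an AP-1 element known from the *Jun* promoter.
Fos: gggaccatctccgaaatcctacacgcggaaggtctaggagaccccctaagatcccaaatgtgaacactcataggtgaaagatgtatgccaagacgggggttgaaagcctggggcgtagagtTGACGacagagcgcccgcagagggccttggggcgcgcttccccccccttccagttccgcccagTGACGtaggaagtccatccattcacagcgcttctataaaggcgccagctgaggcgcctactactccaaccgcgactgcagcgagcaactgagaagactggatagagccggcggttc
Dusp1: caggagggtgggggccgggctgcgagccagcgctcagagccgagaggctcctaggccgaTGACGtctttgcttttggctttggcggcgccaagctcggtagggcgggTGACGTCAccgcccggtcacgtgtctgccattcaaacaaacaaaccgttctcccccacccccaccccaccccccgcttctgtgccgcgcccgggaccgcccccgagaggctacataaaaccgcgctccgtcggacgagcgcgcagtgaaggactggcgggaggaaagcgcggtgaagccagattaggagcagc
Jun: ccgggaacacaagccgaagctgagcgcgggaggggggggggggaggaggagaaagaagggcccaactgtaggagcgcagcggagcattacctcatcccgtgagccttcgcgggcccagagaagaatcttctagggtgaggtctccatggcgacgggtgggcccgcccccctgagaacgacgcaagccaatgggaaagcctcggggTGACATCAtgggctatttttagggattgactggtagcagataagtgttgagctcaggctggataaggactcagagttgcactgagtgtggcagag
Spry1: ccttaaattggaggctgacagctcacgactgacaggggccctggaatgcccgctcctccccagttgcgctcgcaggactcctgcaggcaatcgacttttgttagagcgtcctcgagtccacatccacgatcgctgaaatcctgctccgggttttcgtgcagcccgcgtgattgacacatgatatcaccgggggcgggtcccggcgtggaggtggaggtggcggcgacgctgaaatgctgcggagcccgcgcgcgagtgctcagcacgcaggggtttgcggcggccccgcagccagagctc
The *Fos* window holds TGACG at -129 to -125 and at -66 to -62 from the start site. The *Dusp1* window holds the full TGACGTCA at -143 to -136, which contains TGACG on both strands, and a further TGACG at -191 to -187. The *Jun* window holds TGACATCA at -45 to -38, and the *Spry1* window holds none of the letters searched.

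Both strands of 32851 promoters of the same length were searched, and 7 members have one in this set (*Fos*, *Jun*, *Junb*, *Dusp1*, *Dusp6*, *Spry1* and *Spry2*). TGACGTCA occurred in 1.79% of all promoters, TGACG in 20.81%, TGACATCA in 3.62%, the AP-1 element TGANTCA in 7.81% and the CArG box, which serum response factor binds, in 1.63%. *Junb* holds TGACG at -106 to -102, and no letters searched were found in *Dusp6* and *Spry2*. No window of the 7 holds TGANTCA or a CArG box, which says only that these letters are not in these 300 bases.

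Beyond the members, 25 of 28 other immediate early genes could be tested, and 3 rose and 8 fell, with a median log2 fold change of -0.001 (-0.03 with the offset). Beside this and the lists below, 17.3% of all tested genes rose and 17.2% fell (11.3% and 11.4% with the offset). The median over all tested genes was 0.004 (-0.004 with the offset). All lists were chosen with earlier results of these data known. *Fosl1* and *Fosl2*, which encode FOS-related partners of JUN, fell by 0.82 ± 0.22 SE and 0.36 ± 0.03 SE on the log2 scale (-0.74 and -0.22 with the offset, both called). *Fosl2* went from 25.01 ± 0.861 (SD, n = 5) to 19.4 ± 0.536 (n = 5) FPKM without overlap (edgeR adjusted p = 2.96e-05), and *Fosl1*, at 1.46 ± 0.474 and 0.822 ± 0.138 FPKM, overlapped. *Nr4a1*, an orphan nuclear receptor gene, fell by 0.40 ± 0.10 SE and *Maff*, a small MAF factor gene, by 0.33 ± 0.07 SE. The 3 that rose were *Ier3* (0.42 ± 0.09 SE), *Sgk1* (0.36 ± 0.10 SE), which encodes a kinase related to AKT, and *Klf6* (0.16 ± 0.05 SE), the last without a direction, since its value under the offset was -0.02. With the offset, 2 of the 25 rose and 4 fell, and *Nr4a1* (-0.25), *Maff* (-0.21), *Ier3* (0.31) and *Klf6* (-0.02) were not called. *Fosl1* and *Sgk1* missed the threshold where the offset was joined with the replicate number as a block (edgeR adjusted p = 0.0589 and 0.0574). *Klf6* also missed the threshold without si-Control 1, 2 or 3 or si-*Fndc1* 1 (edgeR adjusted p of 0.0580 to 0.0647).

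Of 20 other feedback and output genes of ERK, 18 were tested, 1 rose and 6 fell, with a median log2 fold change of -0.16 (with the offset, 0 rose and 4 fell, with a median of -0.05). *Dusp7*, encoding another cytoplasmic ERK phosphatase, fell by 0.49 ± 0.07 SE, from 6.00 ± 0.495 to 4.24 ± 0.242 FPKM (SD, n = 5 each), without overlap, and had -0.33 with the offset. *Phlda1* fell by 0.43 ± 0.09 SE, the ephrin receptor gene *Epha2* by 0.34 ± 0.06 SE, and *Dusp8* by 0.25 ± 0.06 SE, the last 2 losing their calls under the offset (-0.16 and -0.02). *Phlda1* missed the threshold where the offset was joined with the replicate number as a block (edgeR adjusted p = 0.0959). *Spred1*, encoding an inhibitor of RAS activation related to Sprouty, rose by 0.24 ± 0.04 SE and had 0.08 under the offset, where it was not called.

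In the cascade itself, 3 of 18 genes rose and 4 fell with and without the offset, with a median log2 fold change of -0.04 (-0.03 with it). The genes that rose were not all the same: *Map2k2* was called only with the offset, at 0.22 against -0.05 without it. The brakes on RAS moved in both directions: *Rasa1*, a RAS GTPase-activating protein gene, rose by 0.32 ± 0.06 SE and *Nf1*, another, fell by 0.29 ± 0.07 SE. *Shc1*, *Araf* and *Ptpn11*, an adaptor, a RAF kinase and a phosphatase upstream of RAS, fell by 0.29 ± 0.03 SE, 0.27 ± 0.03 SE and 0.20 ± 0.03 SE. With the offset these were -0.19, -0.34 and -0.09, still called, and *Ptpn11* missed the threshold where the offset was joined with the replicate number as a block (edgeR adjusted p = 0.0751). In the p38, JNK and ERK5 cascade, *Mapk8* (JNK1) rose by 0.29 ± 0.05 SE and *Map2k4* by 0.21 ± 0.05 SE, *Mapk11* fell by 0.32 ± 0.07 SE, and 7 of the 10 tested genes did not pass. With the offset *Mapk8* had 0.18 and *Mapk11* -0.22, both called, and *Map2k4* was not called (0.09). *Mapk8* and *Mapk11* missed the threshold when the block was added (edgeR adjusted p = 0.0583 and 0.0947).

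Upstream, 0 of 11 tested growth factor receptor genes rose and 6 fell (0 and 3 with the offset), with a median log2 fold change of -0.23 (-0.16 with the offset). Of all tested genes 17.2% fell, or 11.4% with the offset. *Erbb2* fell by 0.50 ± 0.06 SE, from 12.3 ± 0.678 to 8.64 ± 0.698 FPKM (SD, n = 5 each), and *Igf1r*, the IGF-1 receptor gene, by 0.45 ± 0.06 SE. With the offset they had -0.30 and -0.16, both called, and *Igf1r* missed the threshold when the block was added (edgeR adjusted p = 0.0609). *Insr* fell by 0.77 ± 0.27 SE and *Fgfr4* by 0.35 ± 0.11 SE, at adjusted p-values of 0.0494 and 0.0263 in edgeR, and both lost their calls with the offset, *Insr* at -0.69 and *Fgfr4* at -0.15. *Insr* also missed the threshold without si-Control 1, 3 or 5 or si-*Fndc1* 1, 2, 3 or 5 (adjusted p of 0.0901 to 0.106) and in DESeq2, and *Fgfr4* without si-Control 2 or 5 or si-*Fndc1* 2, 3 or 4 (0.0512 to 0.0577).

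Of serum response factor and its cofactors, which sit between ERK or actin and the immediate early promoters, 0 of 6 tested genes rose and 5 fell (0 and 3 with the offset), with a median log2 fold change of -0.26 (-0.11 with the offset). Over all tested genes 17.2% fell, or 11.4% with the offset, and this list too was chosen with earlier results known. *Srf* fell by 0.48 ± 0.07 SE, from 17.6 ± 1.56 to 12.5 ± 0.928 FPKM (SD, n = 5 each), and its ternary complex factor gene *Elk4* fell by 0.45 ± 0.06 SE, both without overlap, and with the offset they had -0.30 and -0.44. The actin-regulated cofactor genes *Mrtfa* and *Mrtfb* fell by 0.30 ± 0.07 SE and 0.23 ± 0.06 SE, *Mrtfa* losing its call under the offset (-0.05) and *Mrtfb* keeping it (-0.15). When the block was added, *Mrtfb* missed the threshold (edgeR adjusted p = 0.0554). The fifth was *Elk1*, which fell by 0.15 ± 0.03 SE and also lost its call under the offset (-0.08). Among 8 stress genes *Hmox1* rose by 0.21 ± 0.06 SE and *Trib3* fell by 0.40 ± 0.13 SE, and the other 6, heat shock genes among them, did not pass. With the offset *Hmox1* had 0.14 and was called, but not when the block was added. *Trib3* missed the threshold with the offset (-0.32), and without any 1 library except si-Control 5 or si-*Fndc1* 4 (edgeR adjusted p of 0.0545 to 0.0808).

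**Figure D5:**
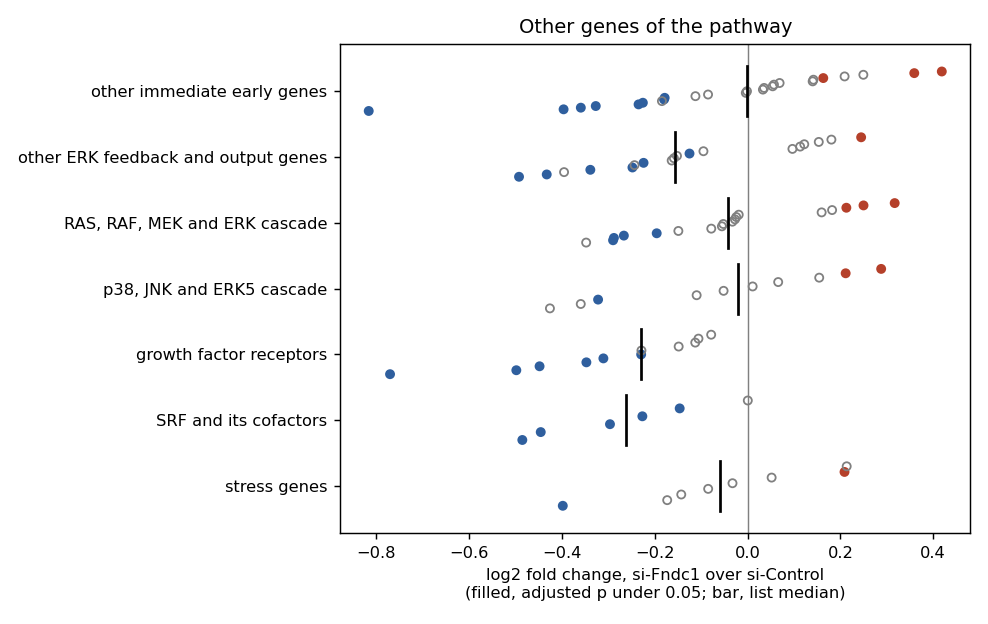
Log2 fold change (horizontal axis, si-*Fndc1* over si-Control) of the tested genes of 7 lists (rows), with filled points for an adjusted p under 0.05 (red higher, blue lower), open points for the rest and a bar at the list median. The called points of the receptor and serum response factor lists all lie left of 0, and those of the other lists on both sides.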

How the data were processed

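C2C12 cells with si-*Fndc1* or si-Control were sequenced, 5 libraries each, and groups and replicate numbers were taken from the sample labels. The authors deposited read counts per gene without normalization and, beside them, FPKM values (listed as 0.0001 for most genes without reads), and 0 columns of values were left without a sample. The submitters' processing notes name cutadapt 1.9, FastQC and GRCm39, whereas the paper's methods and the series text name other builds and aligners, and gene coordinates are printed as the authors' table lists them.

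Counts were tested with edgeR 4.0.16 (quasi-likelihood, TMM, R 4.3.3) for the 13548 genes with a mean of at least 0.5 FPKM, with Benjamini-Hochberg adjustment over them, as 1 comparison with no covariate. Standard errors are the log2 fold change over the root of F. DESeq2 1.42.0, which the paper names, and limma 3.58.1 on log2(FPKM + 1) were alternatives, as were other scalings, filters, a replicate block and leaving out each library. The GC content and length offset came from Huber splines of 5 degrees of freedom in each library, with GC content from NCBIM37 transcripts, for 11185 tested genes (82.6%). Ratios and correlations used log2 CPM with 0.5 added. Single values were compared by two-sided exact permutation tests. Libraries of a group differed by more than sampling noise in each of the 20 pairs, with 40.0 as the lowest chi-square over its degrees of freedom, and precision is limited by this spread more than by counting error. On simulated data, edgeR recovered 150 of 200 changed genes (75%) among 13548, with 4 false calls. Recovery in the real libraries, where 4663 genes were called, was not tested.

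The members, marker lists and pathway lists were chosen with earlier results of these data known, so a list's direction is not independent evidence. Named are all members, *Fndc1*, marker genes and overlapping genes, up to 4 called genes per pathway list and direction with the largest change, and the 3 genes most correlated with *Egr1* and with *Dusp6*, except 2 genes of the cascade that are not reported here. *Elk1*, *Map2k2*, *Zfp36*, *Klf10*, *Btg2* and the early and feedback genes with an r of at least 0.8 to *Egr1* were named after their values were seen. The authors' annotation columns were not used.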

Additional observations from a re-analysis of the deposited data

Results flagged for a closer look

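Among the 20 sets of 5 libraries (10 members in 2 groups), 2 held a library far from the others by Dixon's criterion, which chance meets in about 1 in 20 sets. *Dusp6* in si-Control 5 had 5.45 FPKM, above the 4.49 to 4.72 FPKM of the other si-Control libraries, and the gap was 0.758 of the range. *Spry1* in si-Control 2 had 16.2 FPKM, below the 18.1 to 18.8 FPKM of the others, with a gap of 0.737 of the range.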

How the results depend on the processing

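The edgeR test called 4663 genes, 5989 at an unadjusted p under 0.05. The count was 5019 with DESeq2, 4164 of 28952 genes without a filter, 3431 of 6924 genes at a mean of at least 5 FPKM, and 4000 to 4627 when 1 library was left out. With the GC content and length offset it was 2538, and 1647 with the replicate block added, against 4244 for the same 11185 genes uncorrected. *Jun* and *Dusp4* kept their calls in every setting, down to adjusted p-values of 0.0396 and 0.0472 with both the offset and the block, under which *Spry2* was not called. The signs of *Junb* (0.0831 with the offset and 0.0811 with the block added) and *Klf6* (-0.0222 and -0.0255), of the marker *Ttn* (0.07 with the offset) and of *Map2k2* (0.22 with the offset) turned, among others. The cause was not tested. When 1 library was left out, *Fos* ran from -0.23 to 0.36, *Dusp6* from -0.00855 to 0.17, the ratio of *Spry2* to *Spry4* from -0.0886 to 0.12, and that of *Dusp1* to *Dusp4* from -0.0148 to 0.13. Same-numbered libraries of both groups did not deviate together (correlations -0.04 to 0.05, and 1 of 5 correlated best with its own number), so that the numbers do not pair them, and the fit with the replicate block called 3572 genes.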
